A study of Mus musculus with 3 samples.

Results

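The cells described here are stimulated mouse CD4+ T cells with the highest content of transcripts of the NR4A family and with no detected transcript of the chemokines *Ccl3* and *Ccl4*. The study's 3 single-cell RNA libraries came from spleen CD4+ T cells of C57BL/6 mice, males of 5 to 10 weeks of age per the study's methods, to follow T cell activation and its dependence on IFT20, a protein of intraflagellar transport. In the libraries called WT the mice were *Ift20* f/f, with both alleles flanked by loxP sites and no Cre, and in the IFT20-KO library they were *Ift20* f/f with CD4-Cre, in which the *Cd4* promoter drives Cre in all cells that have passed through a CD4-expressing stage. All cells were enriched for naïve CD4+ T cells and, before capture, sorted as 7AAD-CD3+CD4+ cells. Unstimulated WT cells were kept in buffer, and the cells of the other two libraries, stimulated WT and stimulated IFT20-KO, received antibodies to CD3 and to CD28 over 24 h, each at 1 μg/mL. How many mice gave each library is not stated in the sources used here.

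In the stimulated libraries, barcodes were used if they passed a minimum of unique molecular identifiers (UMIs, the counts of distinct RNA molecules), had under 15% mitochondrial UMIs, and had 0 UMIs of *Ccl3* and *Ccl4*. The shallowest cells kept held 4059 UMIs in WT and 4060 in IFT20-KO. The score of a cell was its summed UMIs of *Nr4a1*, *Nr4a2* and *Nr4a3* divided by all its UMIs, and the members are the top 10% of cells by this score in each library. This gave 589 members of 5885 chemokine-negative cells in stimulated WT and 518 of 5178 in stimulated IFT20-KO, or 1107 of the 32505 barcodes of the series. They are set beside the 2829 WT and 2570 IFT20-KO cells of the same filter with a score of 0, here called score-0 cells. The members were chosen on measured values in the same cells, so every value that follows for members against score-0 cells is a description and no test was made. There was 1 library per condition, so no value has a replicate, and the 95% intervals given cover counting error only. Levels are UMIs summed over a class of cells per 1000000 UMIs (CPM), and differences between classes are given as log2 ratios of these levels. They are shares of UMIs counted at 1 end of the transcript and are not divided by gene length.

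NR4A proteins are orphan nuclear receptors that act as transcription factors. In T cells their genes are immediate-early genes, induced within a short time of T cell receptor (TCR) engagement, and *Nr4a1* reporters are widely used to mark cells that have recently received a TCR signal. The family is also known for restraining effector functions and for its part in tolerance, exhaustion and regulatory T cells.

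The promoters of the 3 genes are shown because the family defines these cells and its members were detected together in many of them. The sequences are the 250 bases before the RefSeq start in GRCm38.p6, 5′ to 3′ on the strand of the gene. Capitals mark TGACG, the core of the cAMP response element, or its reverse complement CGTCA.
Nr4a1, chr15:101266596-101266845, plus strand: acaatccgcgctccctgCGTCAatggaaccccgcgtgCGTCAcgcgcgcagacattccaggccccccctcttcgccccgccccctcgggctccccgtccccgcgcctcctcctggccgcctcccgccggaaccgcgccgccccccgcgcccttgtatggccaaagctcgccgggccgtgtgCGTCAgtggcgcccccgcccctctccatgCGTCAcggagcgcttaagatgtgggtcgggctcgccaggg
Nr4a2, chr2:57124004-57124253, minus strand: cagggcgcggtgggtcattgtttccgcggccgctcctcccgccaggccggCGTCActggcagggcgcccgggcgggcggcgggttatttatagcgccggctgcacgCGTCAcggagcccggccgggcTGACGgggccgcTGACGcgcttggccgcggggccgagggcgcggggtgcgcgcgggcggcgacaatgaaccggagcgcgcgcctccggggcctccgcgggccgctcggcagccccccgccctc
Nr4a3, chr4:48045055-48045304, plus strand: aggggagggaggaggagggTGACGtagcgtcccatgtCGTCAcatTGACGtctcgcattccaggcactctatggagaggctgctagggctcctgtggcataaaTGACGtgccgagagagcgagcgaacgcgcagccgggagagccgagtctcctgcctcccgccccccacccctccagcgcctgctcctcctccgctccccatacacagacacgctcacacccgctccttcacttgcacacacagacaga

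Each of the 3 windows holds 4 copies of TGACG, counting both strands. Windows were searched for 27025 of the 31053 genes in the table, and of these windows 17.9% hold at least 1 copy and 0.152% hold 4 or more. In *Nr4a1* the copies begin 40, 69, 213 and 233 bases before the start, all on the reverse strand, and in *Nr4a3* they begin 147, 205, 213 and 231 bases before it. The complete element TGACGTCA, present in 1.62% of windows, is in none of the 3, and neither is TGANTCA, the AP-1 element (6.87% of windows), nor AAAGGTCA, the NR4A monomer element (1.31%). One form of the EGR site, GCGGGGGCG, is in the *Nr4a1* window and in 2.56% of all, while the form GCGTGGGCG (0.540%) is in none of the 3. The NFAT core GGAAA is in the *Nr4a2* window and in 55.6% of all, and the CArG box of serum response factor is in none of the 3 and in 1.40% of all. These motifs were chosen after the members' values had been seen, and a match of letters is not evidence of binding. In GENCODE M21 *Nr4a1* (ENSMUSG00000023034) spans chr15:101254269-101274795, *Nr4a2* (ENSMUSG00000026826) chr2:57106830-57124003 and *Nr4a3* chr4:48045153-48086447. The RefSeq start differs from the GENCODE one for *Nr4a1* and *Nr4a3*. The *Nr4a1* window thus lies within the GENCODE span, and the *Nr4a3* window lies partly within it.

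*Nr4a1* made up most of the score. It gave 78.0% of the NR4A UMIs of the WT members and 73.7% of those of the IFT20-KO members, against 11.3% and 15% for *Nr4a2* and 10.7% and 11.3% for *Nr4a3*. A WT member held 3 to 72 NR4A UMIs with a median of 13, and an IFT20-KO member 2 to 45 with a median of 7. The cut lay at 4.87 NR4A UMIs per 10000 UMIs in WT and at 3.23 in IFT20-KO. Just inside it was a WT cell with 8 NR4A UMIs of 16433 and an IFT20-KO cell with 4 of 12394, and just outside it were cells with 7 of 14386 and 4 of 12408. At least 1 UMI of *Nr4a1* was found in 99.8% of WT and 96.9% of IFT20-KO members, of *Nr4a2* in 56.0% and 58.7%, and of *Nr4a3* in 69.1% and 55.4%. All 3 genes were detected in 40.6% of WT and 30.5% of IFT20-KO members, and *Nr4a1* alone in 15.4% and 18.3%.

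Summed over the members, *Nr4a1* was at 969 CPM (947 to 991) in WT and 602 CPM (582 to 623) in IFT20-KO. *Nr4a2* was at 140 CPM and 123 CPM, and *Nr4a3* at 133 CPM and 92.1 CPM. All filtered unstimulated WT cells together gave 29.9 CPM of *Nr4a1*, 1.14 CPM of *Nr4a2* and 3.48 CPM of *Nr4a3*. Each of the 3 genes was lower in the IFT20-KO members, the log2 ratio to the WT members being −0.69 (−0.74 to −0.63) for *Nr4a1*, −0.19 (−0.33 to −0.05) for *Nr4a2* and −0.54 (−0.69 to −0.38) for *Nr4a3*. The cut was set within each library, so it is itself lower in IFT20-KO.

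Since a gene that is part of the score must be high in cells chosen by it, each gene was also measured in the top 10% of cells by the other 2 genes alone. The genes were still higher together. *Nr4a1* was at 598 CPM in WT cells chosen on *Nr4a2* and *Nr4a3*, against 51.9 CPM in cells without either, a log2 ratio of 3.53 (3.46 to 3.60), and in IFT20-KO at 354 against 44.8 CPM, a log2 ratio of 2.98 (2.89 to 3.07). For *Nr4a2*, chosen on the other 2 genes, the log2 ratio was 3.08 (2.94 to 3.23) in WT and 2.57 (2.40 to 2.75) in IFT20-KO. *Nr4a3* gave 3.78 (3.60 to 3.96) and 2.90 (2.69 to 3.12).

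With 1 cut for all libraries, the WT one, 10.0% of stimulated WT, 6.14% (5.50% to 6.83%) of stimulated IFT20-KO and 1.14% (0.871% to 1.47%) of unstimulated WT cells passed. These shares depend on depth, so each cell was also thinned at random to the UMI minimum, which left out no cell. At that depth the cut came to 2 NR4A UMIs, and 13.9% (13.0% to 14.8%) of stimulated WT, 10.3% (9.44% to 11.1%) of stimulated IFT20-KO and 1.54% (1.22% to 1.91%) of unstimulated cells reached it. No NR4A UMI was left in 70.7% (69.5% to 71.9%) of stimulated WT, 71.9% (70.7% to 73.2%) of stimulated IFT20-KO and 96.3% of unstimulated cells. With 1 library of each genotype, genotype and library cannot be told apart.

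Members and score-0 cells were of similar depth. The median was 12202 UMIs and 3055 genes per WT member against 12822 UMIs and 3093 genes per WT score-0 cell, and 10503.5 UMIs and 2855 genes per IFT20-KO member against 10980 UMIs and 2905.5 genes per IFT20-KO score-0 cell. Mitochondrial UMIs had medians of 1.31% and 1.32% in the 2 WT classes and of 1.09% and 1.12% in the IFT20-KO ones. Doublets were not removed. Cells over 2 times the median UMI count of their library's filtered cells were 1.19% of WT and 1.74% of IFT20-KO members, against 0.954% and 1.25% of score-0 cells. The stimulated libraries shared 207 barcodes of all, the unstimulated library shared 125 with stimulated WT and 141 with stimulated IFT20-KO, and no barcode was a member in both libraries.

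The members carried the transcripts of CD4+ T cells. *Cd3e*, a chain of the TCR complex, was at 785 CPM in WT and 893 CPM in IFT20-KO members and had a UMI in 99.7% and 99.6% of them, and *Cd4* was at 99.4 CPM and 137 CPM. *Cd8a* had 0 UMIs in the members of both libraries, and the 5 CD8 T cell genes summed to 12 CPM and 16.3 CPM, mostly *Cd8b1*. The 9 genes of NK and innate T cells summed to 1.42 CPM and 1.94 CPM. Of the 9 myeloid genes, *Cst3* gave 72.9 of 76.3 CPM in WT and 76.3 of 80.0 CPM in IFT20-KO members, while *Lyz2*, *Itgax* and *Adgre1* were at 0. The 9 B cell genes summed to 173 CPM and 175 CPM, against 208 CPM and 222 CPM in score-0 cells, with *Ighm* leading and *Ms4a1* at 0. The 7 erythroid and platelet genes had no UMI. *Foxp3*, the factor of regulatory T cells, had a UMI in 2.04% of WT and 2.70% of IFT20-KO members, against 2.09% and 3.11% of score-0 cells.

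The 2 markers of these cells outside the NR4A family are *Gadd45b* and *Gadd45g*, stress- and signal-induced regulators of MAP kinase signaling and DNA repair. *Gadd45g* was higher in members of both libraries, at 39.2 CPM against 11.1 CPM in WT, a log2 ratio of 1.82 (1.60 to 2.04), and at 22.3 CPM against 6.64 CPM in IFT20-KO, a log2 ratio of 1.75 (1.41 to 2.08). In IFT20-KO *Gadd45g* reached 10 CPM in members alone. It came from few cells, since the 10% of members with most *Gadd45g* held 82.2% of its UMIs in WT and 87.3% in IFT20-KO. *Gadd45b* went against the label in WT, where it was at 44.2 CPM in members and 42.1 CPM in score-0 cells, a log2 ratio of 0.07 (−0.10 to 0.24). In IFT20-KO it was at 38.5 CPM in members and 24.8 CPM in score-0 cells, with a log2 ratio of 0.63 (0.41 to 0.86). This too came from few cells, since the 10% of IFT20-KO members with most *Gadd45b* held 79.8% of its UMIs, 1 cell 25 of 218, and after thinning a UMI of it was found in 9.65% (7.25% to 12.5%) of members and 6.77% (5.83% to 7.81%) of score-0 cells, with intervals that overlap. In unstimulated cells *Gadd45b* was at 9.91 CPM. The third of the family, *Gadd45a*, was at 0.906 CPM and 2.12 CPM in the members.

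Of 6750 genes with at least 10 CPM in members or score-0 cells of WT, leaving out the 5 genes of the rule, 319 (4.73%) were at least 1.5-fold higher in members and 248 (3.67%) at least 1.5-fold lower, together 567 (8.40%). In IFT20-KO these were 264 (3.83%) and 142 (2.06%) of 6899 genes, together 406 (5.88%). A gene that reached the level in only 1 of the classes had to be higher there, so the gene lists that follow are counted over genes with at least 10 CPM over all chemokine-negative cells of the library, the members among them. At that level 3.89% of 6530 genes were at least 1.5-fold higher and 3.34% at least 1.5-fold lower in WT members, and 2.99% and 1.73% of 6663 genes in IFT20-KO members, with medians of −0.02 and 0.01 on the log2 scale. The libraries shared 186 of the higher genes, which is 58.3% of the WT and 70.5% of the IFT20-KO genes, and 75 of the lower genes, which is 30.2% and 52.8%. Of 6647 genes compared in both libraries, the shared ones are 2.80% and 1.13%. The genes named by rank in what follows are the 15 highest and 10 lowest over both libraries among those with 1 sign in both and at least 50 CPM in either class, so that their direction in the libraries was fixed by the choice and many passed the level through the class where they are high. All 25 had at least 10 CPM in both classes of each library. With 50 CPM over all chemokine-negative cells of each library instead, 6 of the 15 and 9 of the 10 would be ranked, leaving out *Kdm6b*, *Egr2*, *Phlda1*, *Il2*, *Irf8*, *Nfkbid*, *Bhlhe40*, *Plk3*, *Gch1* and *Glrx*, and *Zfp36* and *Dusp2* would be among the highest.

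**Figure D1:**
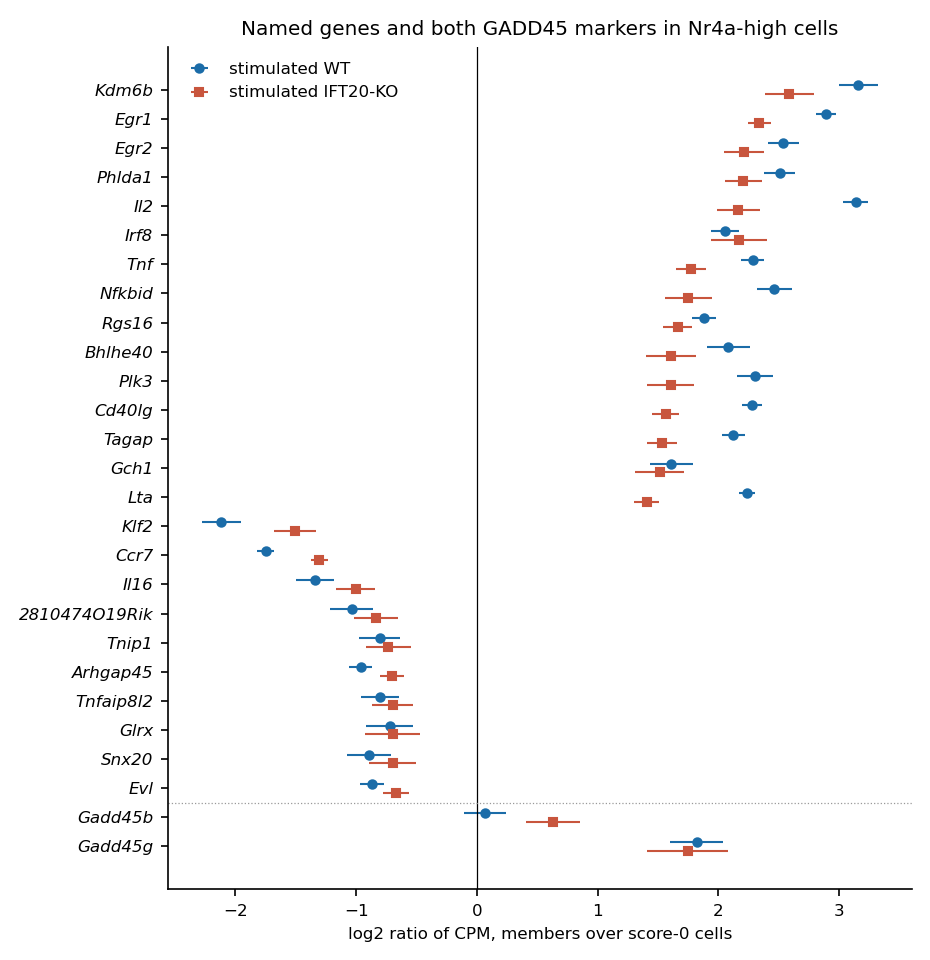
The log2 ratio of CPM, members over score-0 cells (x axis), for the 15 highest and 10 lowest ranked genes and, below the dotted line, *Gadd45b* and *Gadd45g*, in stimulated WT (circles) and stimulated IFT20-KO (squares), with 95% counting intervals as bars. The ranked genes, chosen for 1 sign in both libraries, reach from *Kdm6b* at 3.16 and 2.59 to *Klf2* at −2.12 and −1.5, and *Gadd45b* lies at 0.07 in WT and 0.63 in IFT20-KO.

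Among the highest ranked genes were other transcription factors of the TCR response. *Egr1* was at 401 CPM in WT members and 54.0 CPM in WT score-0 cells, a log2 ratio of 2.89 (2.81 to 2.97), and at 316 CPM and 62.5 CPM in IFT20-KO, a log2 ratio of 2.34 (2.24 to 2.43). Unstimulated cells had 48.2 CPM of *Egr1*, below both classes. *Egr2*, a factor known from T cell tolerance, was at 145 CPM against 25 CPM in WT and 98.8 CPM against 21.3 CPM in IFT20-KO. *Bhlhe40*, a factor of cytokine production, was at 62.3 CPM against 14.7 CPM and 54.4 CPM against 17.8 CPM. *Irf8*, an interferon regulatory factor, had like log2 ratios of 2.05 (1.94 to 2.17) and 2.17 (1.94 to 2.40) from unlike levels, 144 CPM in WT and 51.2 CPM in IFT20-KO members. The widest margin of the ranked genes was that of *Kdm6b*, which encodes a demethylase of histone H3 lysine 27, at 113 CPM against 12.6 CPM in WT, a log2 ratio of 3.16 (3.0 to 3.32), and 74.7 CPM against 12.4 CPM in IFT20-KO, one of 2.59 (2.38 to 2.80).

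The list of immediate-early factors, which does not hold the NR4A genes, was higher in members for most of its genes. In WT 14 of its 17 counted genes, of 25 on the list, were at least 1.5-fold higher in members and 1 at least 1.5-fold lower, with a median log2 ratio of 1.46, and in IFT20-KO 12 of 16 and 0, with a median of 1.08. *Atf3* had log2 ratios of 3.68 (3.44 to 3.93) in WT and 2.98 (2.58 to 3.39) in IFT20-KO, *Egr3* of 3.12 and 2.36, and *Fos* of 2.86 and 2.74. *Atf3* in IFT20-KO reached 10 CPM in members alone and is not in the count there. A UMI of *Atf3* was found in 31.4% of WT and 15.3% of IFT20-KO members. The 10% of members with most *Atf3* held 66.7% of its UMIs in WT and 79.4% in IFT20-KO. *Myc*, a driver of growth, was at 507 CPM against 182 CPM in WT and 354 CPM against 173 CPM in IFT20-KO. The AP-1 subunit *Jun* was an exception, at 7.51 CPM in WT members and 13.9 CPM in WT score-0 cells, a log2 ratio of −0.89 (−1.30 to −0.49), and at 11.3 CPM and 10.9 CPM in IFT20-KO, one of 0.05 (−0.36 to 0.44). *Klf6* was also not higher, with log2 ratios of −0.21 (−0.44 to 0.01) and −0.29 (−0.62 to 0.03).

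The TNF family genes *Cd40lg*, *Tnf* and *Lta* were among the highest ranked genes. *Cd40lg*, the ligand by which helper T cells activate B cells, was at 302 CPM against 62.2 CPM in WT, a log2 ratio of 2.28 (2.20 to 2.37), and at 182 CPM against 61.5 CPM in IFT20-KO, one of 1.56 (1.45 to 1.67). Unstimulated cells had 131 CPM of *Cd40lg*, more than the score-0 cells and less than the members. *Tnf* had log2 ratios of 2.28 (2.19 to 2.38) and 1.77 (1.65 to 1.90), and *Lta*, encoding lymphotoxin α, of 2.24 (2.17 to 2.30) and 1.41 (1.31 to 1.5). Of the 12 counted TNF and CD28 family genes, 5 were at least 1.5-fold higher in each library and 1 in WT and 0 in IFT20-KO lower, with medians of 0.45 in WT and 0.34 in IFT20-KO. The death ligand *Fasl* and *Tnfsf14*, encoding LIGHT, reached 10 CPM in members alone and are not counted, *Fasl* at 27.2 CPM against 4.94 CPM in WT and 23.5 CPM against 5.38 CPM in IFT20-KO, and *Tnfsf14* at 17.1 CPM against 1.80 CPM and 13.6 CPM against 3.16 CPM. *Cd28* itself was lower in members, at 308 CPM against 541 CPM in WT, a log2 ratio of −0.81 (−0.88 to −0.75), and 403 CPM against 568 CPM in IFT20-KO, one of −0.49 (−0.56 to −0.43), and *Icos* was at −0.33 and −0.45 on the log2 scale.

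*Il2*, the growth factor of T cells, was at 272 CPM in WT members against 30.9 CPM in score-0 cells, a log2 ratio of 3.14 (3.03 to 3.24), and at 82.5 CPM against 18.4 CPM in IFT20-KO, one of 2.17 (1.99 to 2.35). A UMI of *Il2* was found in 28.0% of WT and 19.7% of IFT20-KO members, and the 10% of members with most *Il2* held 84.5% and 87.8% of its UMIs. *Egr1*, which is not part of the rule either, was spread more evenly, with 33.3% and 35.6% of its UMIs in the 10% of members with most of it. *Tgfb1* was the other cytokine to reach 10 CPM, with log2 ratios of 0.70 (0.63 to 0.77) and 0.50 (0.41 to 0.59). The remaining 17 cytokine genes on the list were below 10 CPM in members and score-0 cells of both libraries. *Ifng* had 16 UMIs in the WT members, 9 of them in 1 cell, and 0 in the IFT20-KO members.

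At equal depth more members than score-0 cells held a UMI of these genes. Cells with *Il7r* and without *Il2ra* UMIs were taken as the least activated cells. Members were left out of this class, which can lower its shares of genes that are high in members. After thinning to the UMI minimum, *Egr1* had a UMI in 66.6% of WT members, in 15.2% of WT score-0 cells and in 7.89% of the 38 least activated WT cells, which had a median of 9774.5 UMIs. Without thinning the shares were 87.9%, 32.0% and 18.4%. In IFT20-KO they were 58.9%, 18.8% and 24.3% thinned, the last over 37 cells with a median of 8388 UMIs, and 81.1%, 36.4% and 40.5% without thinning. Thinned, the intervals of *Egr1* in the least activated cells were 1.66% to 21.4% in WT and 11.8% to 41.2% in IFT20-KO. Each holds the score-0 share of its library, so those 2 classes cannot be told apart at this number of cells. *Il2* was found in 19.5% of thinned WT members and 4.52% of WT score-0 cells, and in 1 of the 38 least activated cells, 2.63% (0.0666% to 13.8%). In IFT20-KO it was found in 12.4% (9.65% to 15.5%) of members and 4.71% of score-0 cells, and in 3 of the 37 least activated cells, 8.11%, whose interval of 1.70% to 21.9% covers both shares. The *Il2* share of the IFT20-KO members therefore cannot be told apart from that background at this number of cells. *Cd69*, an early surface marker of activation, was found in 77.2% of thinned WT members and 38.7% of score-0 cells, and in 65.4% and 37.1% in IFT20-KO, with 94.4%, 61.9%, 86.5% and 59.9% before thinning. The least activated cells gave 31.6% (17.5% to 48.7%) for *Cd69* in WT, an interval that holds the score-0 share, and 13.5% (4.54% to 28.8%) in IFT20-KO, with 42.1% and 27.0% before thinning.

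Genes that dampen signaling formed a further group. *Rgs16*, an inhibitor of G protein signaling, was at 188 CPM against 51.0 CPM in WT, a log2 ratio of 1.88 (1.78 to 1.98), and *Dusp2*, a nuclear MAP kinase phosphatase, at 850 CPM against 271 CPM. *Dusp5*, a phosphatase of ERK, had log2 ratios of 1.79 (1.65 to 1.92) in WT and 1.38 (1.21 to 1.55) in IFT20-KO. *Spry1*, an inhibitor of RAS signaling, had 1.27 and 1.06, the adaptor *Sla*, which lowers TCR levels, 1.04 and 0.82, and the ubiquitin ligase *Cblb* 0.97 and 0.70. In the list of MAPK and TCR signal feedback, 11 of 21 counted genes were at least 1.5-fold higher in WT and 10 of 24 in IFT20-KO, and 1 was at least 1.5-fold lower in each, with medians of 0.65 and 0.45. *Socs3*, an inhibitor of cytokine signaling, is left out of these counts because it reached 10 CPM in score-0 cells alone, and was at 3.63 CPM against 13.7 CPM in WT, a log2 ratio of −1.92 (−2.52 to −1.37), and at 2.83 CPM against 11.1 CPM in IFT20-KO, one of −1.97 (−2.80 to −1.25). *Dusp1* differed by less than its counting error in both libraries, at −0.05 and 0.05.

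Inhibitory receptors differed in direction. *Pdcd1*, encoding PD-1, was at 231 CPM against 87.9 CPM in WT, a log2 ratio of 1.39 (1.31 to 1.48), and 259 CPM against 112 CPM in IFT20-KO, one of 1.21 (1.12 to 1.30). Its ligand gene *Cd274* had log2 ratios of 1.45 and 1.26, *Cd160* of 1.41 and 1.35, and *Vsir*, encoding VISTA, of 0.60 and 0.69. *Ctla4* was lower in members, at 14.4 CPM against 29.6 CPM in WT, a log2 ratio of −1.04 (−1.34 to −0.76), and at 20.1 CPM against 37.1 CPM in IFT20-KO, one of −0.88 (−1.17 to −0.60). *Tigit*, at 4.92 CPM against 9.83 CPM in WT, was also lower. *Lag3* had log2 ratios of 0.19 and 0.25, and *Havcr2*, encoding TIM-3, had no UMI in the members. Of the counted genes of this list, 5 of 11 were at least 1.5-fold higher in each library and 1 lower, and its medians were 0.25 and 0.26.

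In the NF-κB list, 5 of 19 counted genes were at least 1.5-fold higher in WT members and 5 of 18 in IFT20-KO members, and 2 and 1 at least 1.5-fold lower, with medians of 0.17 and 0.27. *Nfkbid*, a nuclear IκB protein, led with 104 CPM against 18.8 CPM in WT, a log2 ratio of 2.46 (2.32 to 2.61), and 63.4 CPM against 18.9 CPM in IFT20-KO, one of 1.75 (1.55 to 1.94). The subunit *Rel* had log2 ratios of 1.17 and 0.98, *Nfkbiz* of 1.08 and 0.89, and the targets *Bcl2a1b* and *Bcl2a1d*, whose near-identical copies can share reads, of 0.85 and 1.01 in WT. The subunit *Rela* was at 0.04 and 0.21 and the inhibitor *Nfkbia* at 0.02 and 0.16. *Tnip1*, a partner of the brake A20, was among the lowest ranked genes, at −0.81 (−0.98 to −0.64) and −0.73 (−0.92 to −0.55).

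Of 10 counted calcineurin and NFAT genes, *Nfatc1* and *Spry1* were at least 1.5-fold higher in both libraries. *Nfatc1*, the NFAT gene that TCR signals induce, was at 200 CPM against 97.7 CPM in WT and 205 CPM against 107 CPM in IFT20-KO. *Nfatc2* was at 11.8 CPM in WT members and in WT score-0 cells. The medians of the list were −0.01 and 0.12. Of 21 counted genes of the TCR complex and its proximal signaling, *Lcp2*, the adaptor SLP-76, and *Malt1* were at least 1.5-fold higher in both libraries, at 1.05 and 0.87 and at 0.92 and 0.97 on the log2 scale, while 2 genes in WT and 1 in IFT20-KO were at least 1.5-fold lower. *Cd3e*, *Cd3d* and *Cd3g* were slightly lower in members, *Cd3g* with log2 ratios of −0.30 (−0.34 to −0.25) and −0.20 (−0.26 to −0.15). The medians were 0.18 and 0.23.

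The other highest ranked genes have varied roles. *Phlda1*, a TCR-induced gene first known from T cell death, was at 139 CPM against 24.4 CPM in WT, a log2 ratio of 2.51 (2.38 to 2.64), and 114 CPM against 24.7 CPM in IFT20-KO, one of 2.21 (2.05 to 2.36). *Plk3*, a stress-responsive kinase, had log2 ratios of 2.30 and 1.61, and *Tagap*, a GTPase-activating protein of T cells, of 2.12 and 1.54. *Gch1*, the first enzyme of tetrahydrobiopterin synthesis, was at 55.5 CPM against 18.2 CPM in WT and 55.7 CPM against 19.5 CPM in IFT20-KO.

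The lowest ranked genes include the marks of quiescent, recirculating T cells. *Klf2*, a factor that maintains quiescence and the genes of egress, was at 42.9 CPM in WT members against 186 CPM in score-0 cells, a log2 ratio of −2.12 (−2.28 to −1.96), and at 50.5 CPM against 143 CPM in IFT20-KO, one of −1.5 (−1.68 to −1.33). *Ccr7*, the receptor for entry to lymph nodes, was at 216 CPM against 727 CPM and at 319 CPM against 789 CPM. Outside the ranked genes, the quiescence factor *Foxo1* had log2 ratios of −0.83 and −0.60. *S1pr1*, the receptor for egress and a KLF2 target, reached 10 CPM in score-0 cells alone, at 3.88 CPM against 12.8 CPM in WT and 2.47 CPM against 10.2 CPM in IFT20-KO. *Il16*, a T cell chemoattractant, had log2 ratios of −1.34 and −1.0, *Arhgap45* of −0.96 and −0.70, and *Evl*, an actin regulator, of −0.87 and −0.67. *2810474O19Rik*, *Tnfaip8l2*, *Glrx* and *Snx20* lay between −1.04 and −0.69 in both libraries.

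Lower levels were not found over the whole list of naïve T cell genes. Of its 14 counted genes, 3 were at least 1.5-fold lower in each library and 0 higher, with medians of −0.06 and −0.04. *Id3* and *Btg1* were higher by 0.47 and 0.43 on the log2 scale in WT and by 0.39 and 0.44 in IFT20-KO. *Lef1* differed by less than its counting error, with −0.01 and 0.05, whereas *Tcf7* was at −0.58 (−0.71 to −0.45) in WT and −0.16 (−0.30 to −0.01) in IFT20-KO. *Il7r*, the IL-7 receptor gene of naïve cells, was low in all stimulated cells, at 7.77 CPM in members and 5.68 CPM in score-0 cells of WT and at 5.12 CPM and 4.70 CPM in IFT20-KO, against 469 CPM in unstimulated cells.

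To see how these genes followed the score, the chemokine-negative cells of each library were put in 6 classes, namely score 0, 3 classes of like size between 0 and the cut, and the members below and above their own median score. *Egr1* was higher in each successive class, from 54.0 to 88.3, 109, 187, 315 and 496 CPM in WT and from 62.5 to 80.6, 111, 142, 249 and 390 CPM in IFT20-KO. *Kdm6b* went the same way, from 12.6 to 145 CPM and from 12.4 to 99.3 CPM. *Ccr7* was lower in each successive class in WT, from 727 to 173 CPM, and in IFT20-KO from 789 to 283 CPM with 1 step up between the second and the third class. *Gadd45b* in WT stayed between 41.9 and 46.9 CPM over all 6 classes. The classes differ in depth, with a median of 16513 UMIs per WT cell in the lowest class above 0 and 11668.5 in the highest, and the part of depth in these steps was not tested.

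**Figure D2:**
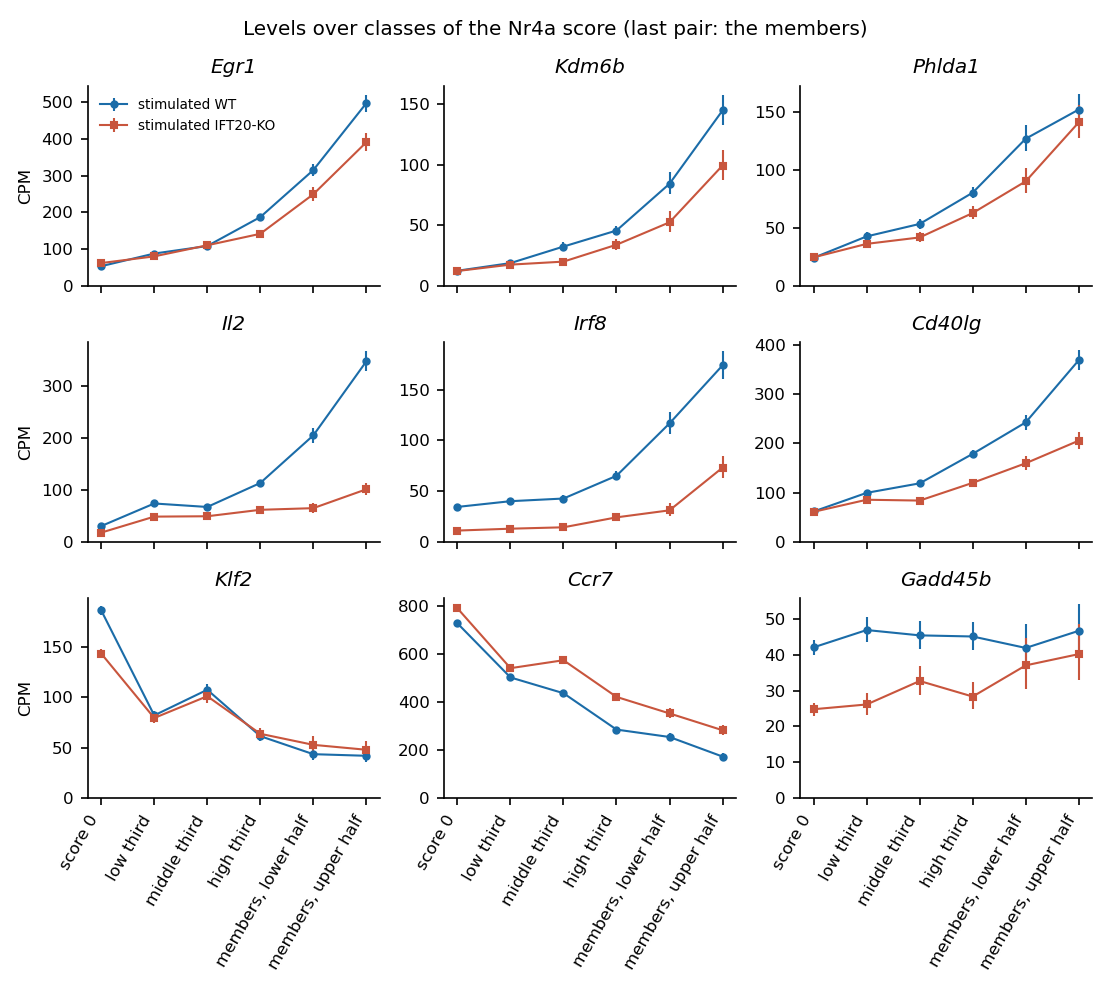
CPM (y axes, from 0) of 9 genes in 6 classes of cells by NR4A score (x axis, the last pair being the members below and above their median score), in stimulated WT (circles) and stimulated IFT20-KO (squares), with 95% counting intervals. *Egr1*, *Kdm6b*, *Phlda1*, *Irf8* and *Cd40lg* are highest in the members, and *Klf2* and *Ccr7* are highest at score 0.

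Lists of growth and of metabolism differed from each other. Of the 25 genes of ribosome biogenesis, 22 in WT and 24 in IFT20-KO had log2 ratios above 0, with medians of 0.34 and 0.24. Only 4 in WT and 1 in IFT20-KO were at least 1.5-fold higher in members, and 0 were lower by as much. The highest was *Rrs1*, at 0.77 and 0.76. In the list of ATF4 stress genes, 12 and 13 of 15 were higher, 7 in WT and 5 in IFT20-KO at least 1.5-fold, with medians of 0.46 and 0.47, led by *Chac1*, a glutathione-degrading enzyme, at 1.92 and 1.65. The amino acid transporter gene *Slc7a5* was at 0.78 in each library. Glycolytic genes had medians slightly below 0, at −0.18 and −0.13, with 13 of 18 genes in WT and 12 of 17 in IFT20-KO below 0. In both libraries 0 of them were at least 1.5-fold lower, while 2 in WT and 1 in IFT20-KO were at least 1.5-fold higher. The glucose transporter gene *Slc2a1* was higher, at 0.70 and 0.66. The hexokinase gene *Hk2* was at 1.18 in WT and at 0.81 in IFT20-KO, where it reached 10 CPM in members alone and is not counted. *Gapdh*, *Ldha*, *Pgk1* and *Aldoa* of this list have near-identical pseudogenes that can take their reads. Cholesterol synthesis had medians of 0.12 and −0.02.

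Members were not enriched for cycling transcripts. Of the S phase genes, 33 of 37 were lower in WT members and 33 of 39 in IFT20-KO members, with medians of −0.20 and −0.20, and of the G2/M genes 17 of 22 and 18 of 24, with medians of −0.13 and −0.30. Few were at least 1.5-fold lower, namely 2 S phase genes in each library and 2 G2/M genes in WT and 5 in IFT20-KO. None of either list was at least 1.5-fold higher. *Mki67* was at 6.09 CPM in WT members and 5.95 CPM in WT score-0 cells. Of 10 CDK inhibitors and p53 targets, 6 were at least 1.5-fold lower in WT members and 1 in IFT20-KO members, and 2 higher in each, with medians of −0.62 and −0.25. *Cdkn1b*, the p27 gene of quiescent cells, was at 12.8 CPM against 31.5 CPM in WT, and *Cdkn1a*, the p21 gene, was higher with log2 ratios of 0.38 and 0.62. Among apoptosis regulators, with medians of −0.02 and −0.09, the death gene *Bbc3* was lower, at −1.32 (−1.59 to −1.06) and −0.59 (−0.83 to −0.35), and the survival gene *Bcl2l1* higher, at 0.64 and 0.65.

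Among helper lineage factors, 4 of 8 counted genes were at least 1.5-fold higher in WT and 3 of 7 in IFT20-KO and 0 lower, with medians of 0.71 and 0.45. *Runx1* had log2 ratios of 1.12 and 1.04, and *Irf4*, a factor whose level follows TCR strength, of 0.40 and 0.45. *Tbx21*, encoding T-bet, was at 26.7 CPM in WT members against 9.22 CPM in score-0 cells, and at 0.707 CPM against 1.23 CPM in IFT20-KO, where the whole filtered library had 1.31 CPM. *Gata3* was at 21.5 CPM against 11.9 CPM in WT and 11 CPM against 10.2 CPM in IFT20-KO. Follicular helper genes had medians of 0.35 and 0.20, and regulatory T cell genes of 0.06 and 0.03. In the list of the IL-2 receptor and STAT5 genes, with medians of 0.16 and 0.05, *Il2ra* was at 0.66 and 0.48 and *Cish*, a STAT5 target, at 1.12 and 0.47.

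Of the interferon-induced genes, 3 of 16 in WT were at least 1.5-fold higher and 2 lower, and in IFT20-KO 1 of 12 was higher and 3 were lower, with medians of −0.06 and −0.38. *Irf1* was at −0.59 and −0.80 and *Gbp4* at −0.54 and −0.85. *Irf8*, described above, belongs to this list too. Heat shock and dissociation genes, a sign of handling stress, had medians of 0.03 and 0.03, with 0 of 10 genes past 1.5-fold in either direction in each library.

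**Figure D3:**
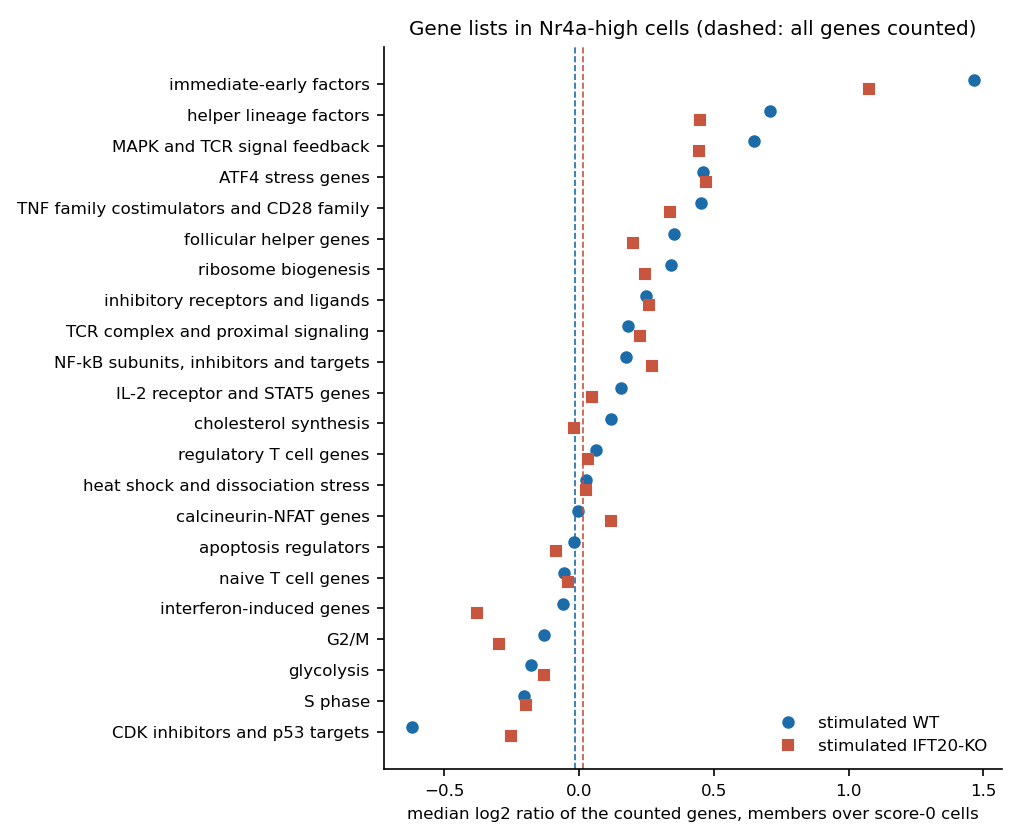
Median log2 ratio of the counted genes of each list with at least 5 of them, members over score-0 cells (x axis), in stimulated WT (circles) and stimulated IFT20-KO (squares), with the medians over all genes counted as dashed lines. Immediate-early factors stand at 1.46 and 1.08, CDK inhibitors and p53 targets at −0.62 and −0.25.

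*Ccl1*, a chemokine outside the rule, was at 43.1 CPM in WT members and 0.423 CPM in score-0 cells, but its 333 UMIs in WT members came from 6 of the 589 cells, and the IFT20-KO members had none. *Ccr8*, the receptor for CCL1, was at 9.97 CPM against 2.40 CPM in WT and 11.1 CPM against 2.69 CPM in IFT20-KO, and *Xcl1* at 8.93 CPM against 3.70 CPM and 12 CPM against 5.68 CPM. *Ccr4* had log2 ratios of −1.04 and −0.56.

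Within the members, those with and without a UMI of *Nr4a3* differed, as did those with and without one of *Nr4a2*. Of the WT members 407 had *Nr4a3*, at a median depth of 12695 UMIs against 11433 in those without. *Irf8* was at 168 CPM with *Nr4a3* and 82.0 CPM without it, a log2 ratio of 1.04 (0.81 to 1.28), and in IFT20-KO at 65.7 CPM and 31.7 CPM, one of 1.05 (0.67 to 1.45). *Lta* had ratios of 0.92 (0.80 to 1.05) and 0.96 (0.78 to 1.14), *Atf3* of 1.06 and 0.96, and *Il2* of 0.73 and 0.81. *Gadd45b* was higher with *Nr4a3*, at 50.1 CPM against 29.2 CPM in WT and 56.8 CPM against 13.7 CPM in IFT20-KO. By *Nr4a2* the direction of *Gadd45b* was opposite, at 31.6 CPM with and 61.2 CPM without it in WT, a log2 ratio of −0.95 (−1.27 to −0.64), and at 27.7 CPM and 56.0 CPM in IFT20-KO, one of −1.02 (−1.42 to −0.62). *Phlda1* was higher with *Nr4a2*, by 0.93 (0.74 to 1.13) and 0.68 (0.43 to 0.93), and differed by less than its counting error with *Nr4a3*, by 0.06 and 0.16. *Egr1* was lower with either gene, the log2 ratios being −0.30 and −0.20 for *Nr4a2* and −0.48 and −0.29 for *Nr4a3*. Members without *Nr4a2* or *Nr4a3* had to reach the cut with the other genes, so the splits are not independent of the rule.

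The same score was also found among cells with *Ccl3* or *Ccl4*, which the rule leaves out. Past the cut of their library were 400 of 1717 such cells in WT, 23.3% (21.3% to 25.4%), and 454 of 2066 in IFT20-KO, 22.0% (20.2% to 23.8%), beside 10.0% of chemokine-negative cells, which the rule fixed. Set against the members, these chemokine-positive cells had 76 of 6676 genes (1.14%) at least 1.5-fold higher and 24 (0.359%) at least 1.5-fold lower in WT, and 97 (1.41%) and 49 (0.714%) of 6865 in IFT20-KO. *Il2* was at 449 CPM in them against 272 CPM in WT members, a log2 ratio of 0.72 (0.64 to 0.81), and at 203 CPM against 82.5 CPM in IFT20-KO, one of 1.30 (1.14 to 1.46). Of the S phase genes with at least 10 CPM over all filtered cells, 36 of 37 in WT and 37 of 39 in IFT20-KO were higher in them, 8 and 7 by at least 1.5-fold, with medians of 0.28 and 0.22. At that level 0.734% of all genes in WT and 1.01% in IFT20-KO were at least 1.5-fold higher. *Rrm2*, a subunit of ribonucleotide reductase, was among the genes furthest apart, at 1.16 and 1.30, whereas *Pcna*, the sliding clamp of DNA replication, was at 0.34 and 0.21. *Egr2* was at 140 CPM against 145 CPM in WT members, a log2 ratio of −0.05 (−0.18 to 0.08). *Klf2* was lower than in the members, with log2 ratios of −0.29 (−0.54 to −0.03) in WT and −0.96 (−1.26 to −0.67) in IFT20-KO. Their median depth of 14106 and 11981.5 UMIs was above that of the members.

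*Ift20* checks the labels of the libraries. It was at 76.9 CPM (70.9 to 83.4) in WT members and 6.54 CPM (4.60 to 9.01) in IFT20-KO members, a log2 ratio of −3.56 (−4.08 to −3.08). Members and score-0 cells had close levels of it, with 76.9 CPM and 78.7 CPM in WT and 6.54 CPM and 6.33 CPM in IFT20-KO. Relative to the WT members, and beside a median over all genes of 0.04, the IFT20-KO members had less *Il2*, with a log2 ratio of −1.72 (−1.87 to −1.58), less *Irf8*, with −1.49 (−1.68 to −1.30), less *Lta*, with −1.04 (−1.13 to −0.94), and less *Cd40lg*, with −0.74 (−0.84 to −0.63). The score-0 cells of the libraries differed too, with less *Irf8* in IFT20-KO by a log2 ratio of −1.60 (−1.78 to −1.43), close to that of the members, and less *Il2*, with −0.75 (−0.90 to −0.60), and less *Lta*, with −0.21 (−0.28 to −0.13), but *Cd40lg* at −0.02 (−0.11 to 0.07). *Egr1* was lower in the IFT20-KO members, at −0.34 (−0.43 to −0.26), and higher in the IFT20-KO score-0 cells, at 0.21 (0.12 to 0.30). Between the members *Gch1* was at 0.00 (−0.21 to 0.22) and *Nfatc1* at 0.04 (−0.08 to 0.15). *Ccr7* was higher in the IFT20-KO members, by 0.56 (0.47 to 0.66), as was *Cd28*, by 0.39 (0.30 to 0.47). The IFT20-KO members were chosen at a lower score, and the part of that in these values was not tested.

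**Figure D4:**
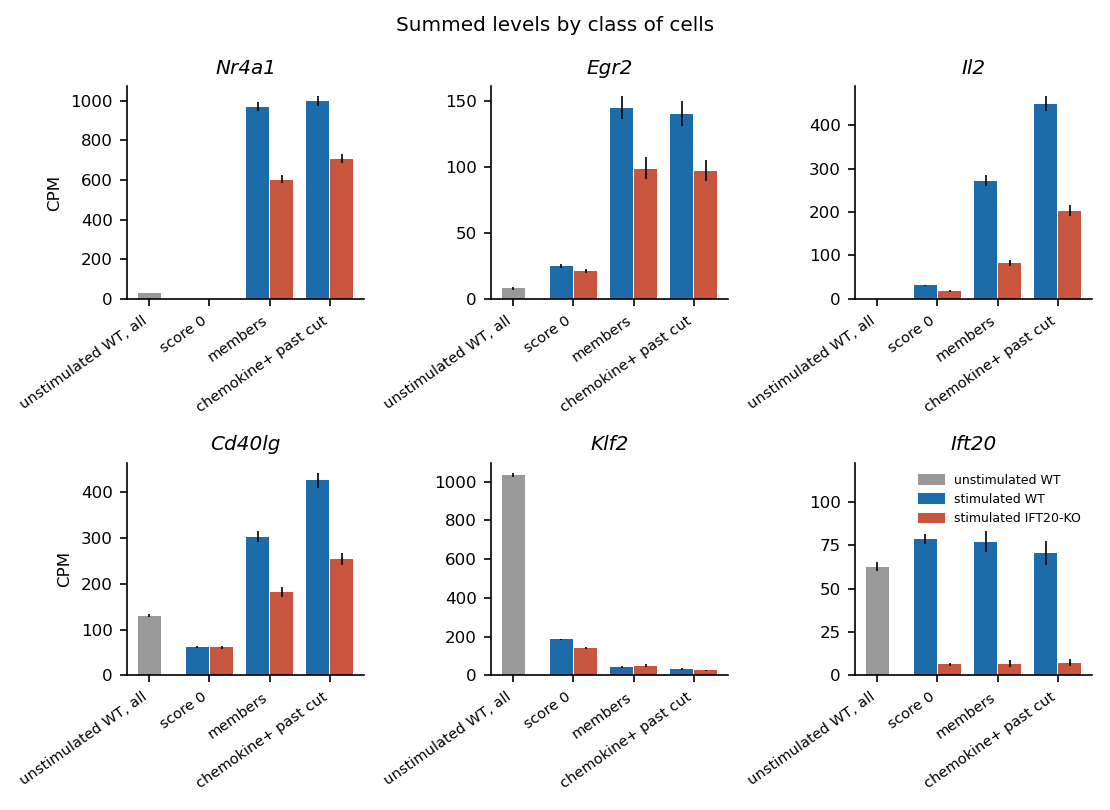
Summed CPM (y axes, from 0) of 6 genes in all filtered unstimulated WT cells (grey) and, in stimulated WT (blue) and stimulated IFT20-KO (red), in score-0 cells, members and chemokine-positive cells past the cut, with 95% counting intervals as bars. *Klf2* is at 1035 CPM in unstimulated cells and at 42.9 and 50.5 CPM in the members, and *Ift20* is low in every class of the IFT20-KO library.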

How the data were processed

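Reads were processed by the authors with Cell Ranger (version 3.1.0 in the file headers) against mm10, and the UMI counts per gene and barcode that the authors deposited, unnormalized, were used for all 3 libraries. The labels name a kit that captures the 5′ transcript end and the study's methods one for the 3′ end. Comparisons of level between genes, such as the shares of the 3 NR4A genes, therefore hold for counted UMIs only. The cells and gene lists described here were chosen with earlier results of these data known. UMIs were summed over each class of cells and divided by the class total. Intervals at 95% are exact Poisson intervals for levels, exact binomial ones for ratios, and exact Clopper-Pearson ones for shares. A gene was compared if it reached 10 CPM in either class, and a call meant a 1.5-fold difference. Gene lists were counted with the 10 CPM minimum on all chemokine-negative cells instead, a choice made after seeing the data. Genes were named by rank, the 15 highest and 10 lowest by the smaller absolute log2 ratio of the 2 libraries, with at least 50 CPM and 1 sign in both and without the genes of the rule, Y-linked genes, *Xist* and antigen receptor segments, or because they are *Ift20* or on a gene list. With 1 library per condition no test was made, and no count model was fitted. Cells were thinned to a fixed depth for shares. No doublet caller was run. Alternatives changed the comparison cells, depth, top percentage, UMI minimum, chemokine filter, level minimum and fold. The calculations were tested on simulated data, with Python 3.11.15, numpy 2.4.6, scipy 1.17.1, pandas 2.3.3 and matplotlib 3.10.9.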

Additional observations from a re-analysis of the deposited data

How the results depend on the processing

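The counts of genes past 1.5-fold depended on the settings. Against all non-members the counts were 195 higher and 126 lower in WT and 74 lower in IFT20-KO. With the top 20% as members they were 210 higher in WT and 171 higher and 86 lower in IFT20-KO, and with the top 5% 284 were lower in IFT20-KO. In thinned cells 419 were lower in WT and 279 in IFT20-KO, and with no UMI minimum 71 were lower in IFT20-KO. A 50 CPM minimum left 132 higher and 35 lower in WT and 90 and 18 in IFT20-KO, no minimum level gave 3665 and 1418 in WT and 3552 and 1112 in IFT20-KO, and a 2-fold limit gave 106 and 41 in WT and 74 and 15 in IFT20-KO. Thinning gave 13.9%, 10.3% and 1.54% of stimulated WT, stimulated IFT20-KO and unstimulated cells past the WT cut. Sign changes of list medians were counted only where the main median was at least 0.1 from 0. There were 4 such changes among 579 list medians under alternatives. They include the IL-2 receptor and STAT5 genes in WT with the top 20% (−0.032) and the G2/M genes in IFT20-KO with no chemokine filter (0.022). The others were the calcineurin and NFAT genes in IFT20-KO, in thinned cells (−0.015) and with members chosen on thinned cells (−0.0060). The cause of these changes was not tested. With the planned minimum in either class, 17 of 20 immediate-early factors in WT and 14 of 18 in IFT20-KO were higher by 1.5-fold, with medians of 1.47 and 1.20, and 7 of 14 TNF and CD28 family genes in each, with medians of 0.63 and 0.50. For MAPK and TCR signal feedback it gave 12 of 24 higher and 2 lower in WT, with a median of 0.42, and for the naïve T cell genes 4 of 15 lower, with a median of −0.10 in WT. The 25 ranked genes, chosen for large ratios of 1 sign, kept their direction in all 600 values over 12 alternatives, 377 of them within the counting interval, and those nearest 0 were *Glrx* at −0.35 in WT and *Snx20* at −0.40 in IFT20-KO. One of the 12, leaving out the 10% of members with most UMIs, was chosen after seeing the data, as were the comparison with chemokine-positive cells and the level minimum over all chemokine-negative cells. No paired analysis was possible because each condition has 1 library, and for the same reason no replicate could be left out. Genotype, culture and library cannot be told apart.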
